A study of Mus musculus with 16 samples.

Results

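Histone RNAs were compared between protrusions (Ps) and cell bodies (CB) of mouse fibroblasts. Members were all rows whose symbol starts with Hist1h to Hist4h, H2af, H3f3 or H1f, which gave 22 of 12900 RNAs. These were 10 genes named for the histone clusters, 10 variant histone genes and 2 loci named as H3f3a pseudogenes. The classes follow the symbols, so their counts and medians include Hist1h2al (clustered) and H3f3c (variant), which GENCODE vM21 annotates as processed pseudogenes. The cells were NIH/3T3, an established mouse fibroblast line, carrying a lentiviral construct under a doxycycline-inducible promoter. The control line, HBB, expressed the coding sequence of human β-globin with the β-globin 3′UTR, and the competing line, Pkp4 cUTR, expressed the same coding sequence with the mouse Pkp4 3′UTR. All samples, controls included, received 1 µg/ml doxycycline for 3 days, were serum-starved, were plated for 2 h on Transwell filters with 3.0-µm pores, and had lysophosphatidic acid (LPA) in the bottom chamber for 1 h before fixation. Each line gave 4 Ps and 4 CB samples. Each construct was carried by 1 geneticin-selected line, so the construct and the line cannot be told apart, and whether the line was a clone or a population is not given in the sources used here.

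Replication-dependent histone genes lie in clusters, have no introns, and are transcribed when DNA is copied. Their mRNAs are the known exception among animal mRNAs in ending, instead of with a poly(A) tail, with a conserved stem-loop that is bound by the stem-loop binding protein Slbp. Variant (replacement) histones such as H3.3, H2A.Z and H1.0 are made outside S phase from polyadenylated mRNAs and are placed in chromatin by dedicated chaperones. Some clustered genes can also yield longer, polyadenylated mRNAs in cells that do not divide. The kit matters for such RNAs, and the sources differ on it: the labels name a stranded total RNA kit, whereas the methods give an mRNA kit under the same catalogue number, so whether poly(A) RNA was selected is not settled here.

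The stem-loops found in 6 clustered genes and in the variant H2afx are shown because this element belongs to the non-polyadenylated kind of 3′ end. The sequences are DNA letters of the sense strand from GENCODE vM21 transcripts (GRCm38, the same assembly as mm10), 5′ to 3′, and the capitals mark the 16-base stem-loop.
Hist1h1c: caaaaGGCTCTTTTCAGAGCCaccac
Hist1h3c: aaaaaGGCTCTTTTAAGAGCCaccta
Hist1h4d: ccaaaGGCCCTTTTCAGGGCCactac
Hist1h4i: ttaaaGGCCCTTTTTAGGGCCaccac
Hist2h2aa1: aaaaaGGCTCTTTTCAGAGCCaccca
Hist2h3c2: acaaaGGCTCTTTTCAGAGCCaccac
H2afx: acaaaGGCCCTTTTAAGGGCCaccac
The stem-loop was searched after the stop codon on the transcript strand, and 62 of 21762 protein-coding genes (0.285%) held it, of which 46 were clustered histone genes. The annotation has 67 protein-coding clustered genes, and 9 of them had a row among the RNAs analysed. Of these 9, 6 held the stem-loop, and no match was found for Hist2h2be, Hist1h2bc and Hist1h2ai. The transcript of Hist1h2ai is annotated without any bases after its stop codon. Of the 58 genes not analysed here, 40 held it. Among variants the stem-loop was found in H2afx, whose mRNA is known to occur with either kind of end.

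The annotated 3′ ends of the clustered genes analysed differed in length. Past the stem-loop, the 6 genes had a median of 353.5 annotated bases (range 35 for Hist2h2aa1 to 840 for Hist1h1c), and 4 of 6 had more than 200. The 40 stem-loop genes not analysed here had a median of 54 bases (range 3 to 4884), and 14 of 40 had more than 200, a difference that was not tested. A poly(A) signal (AATAAA or ATTAAA) lay in the last 40 bases of 3 of the 9 clustered genes analysed (Hist1h1c, Hist1h4i and Hist2h2be) and of 7 of the 9 protein-coding variants analysed, searched on the transcript strand, against 76.7% of all protein-coding genes. These are features of the annotation, and which end the sequenced RNAs carried was not measured.

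**Figure D1:**
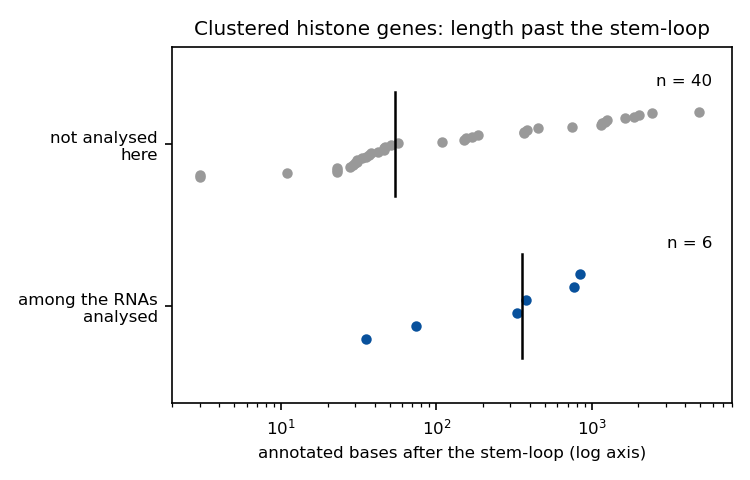
Annotated bases after the stem-loop (log axis) in clustered histone genes that hold one, for the 6 genes among the RNAs analysed and the 40 not analysed here. Points are genes, spread vertically in rank order, and black lines are medians (353.5 and 54 bases).

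Variant histones made up nearly all reads of the 22 rows. Clustered genes took 1.52 to 2.64% of these reads per sample, and the 22 rows together took 0.139 to 0.189% of all reads. Sample totals were 18660287 to 31260831 reads, and 3 reads corresponded to 0.089 to 0.176 CPM, the read count scaled to a common library size. Fibroblast marker genes were high, 8 of 10 being measured at a summed 19270 to 31540 CPM, against 46.11 to 80.52 CPM for the 6 of 11 measured markers of other cell types. The Pkp4 row, which can hold reads of the construct's 3′UTR, was higher in Pkp4 cUTR than in HBB cell bodies by 4.44 on the log2 scale (SE 0.20, adjusted p = 7.41e-11, limma). Replicate 4 of the cell bodies stood apart in both lines on the first principal component (23.4 against 39.8 to 47.5 in HBB, 0.972 against 27.7 to 42.2 in Pkp4 cUTR). Counts are therefore also given without these 2 samples.

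Among variants, the order by mean CPM per kilobase of annotated exon over all 16 samples was H1f0 (197), H3f3b (177), H2afj (74.0), H2afz (69.5), H3f3a (60.4), H2afv (58.1), H2afx (18.8), H2afy2 (8.11) and H2afy (7.23). The order differed between fractions and between lines. In CB, H2afz was above H2afj (58.3 against 53.0 CPM per kilobase in HBB, 67.3 against 57.3 in Pkp4 cUTR), and in Ps it was below (73.7 against 86.7, 78.5 against 98.9). H2afv was above H3f3a in Pkp4 cUTR (51.7 against 51.3 in CB, 77.6 against 69.9 in Ps). In HBB, H2afv was below H3f3a (40.5 against 47.6 in CB, 62.7 against 72.6 in Ps). H1f0 encodes the linker histone H1.0 of resting cells (chr15:79028450-79030504, 1 coding exon), and H3f3b (chr11:116021912-116027962) and H3f3a (chr1:180800832-180813943) both encode H3.3. Per kilobase, the H3f3b level was therefore above that of H3f3a, which codes for the same protein. H3f3c, annotated as a processed pseudogene, had 2 to 13 reads per sample.

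Among clustered genes, Hist1h1c, encoding linker histone H1.2 (chr13:23738808-23740367), gave 48.6 to 70.9% of the clustered reads. Its mean was 21.0 CPM, or 13.5 CPM per kilobase. Hist1h2al followed with 3.84 CPM, but the annotation used here calls this short locus (chr13:51202727-51203065) a processed pseudogene. Hist1h2bc had 3.54 CPM, Hist2h2be 1.65, Hist1h4i 1.30 and Hist2h3c2 1.00 as means over all samples. In Pkp4 cUTR, Hist1h2bc (3.59 CPM in CB, 5.87 in Ps) was above Hist1h2al (3.2 and 4.67), and in its protrusions Hist1h4i (1.90) was above Hist2h2be (1.22). In HBB cell bodies, Hist2h2be (2.19) was above Hist1h2bc (1.76). Hist2h3c2 was above Hist1h4i in both HBB fractions (0.912 against 0.81 in CB, 1.18 against 1.08 in Ps). Hist1h3c, Hist2h2aa1, Hist1h4d and Hist1h2ai had means of 0.674, 0.607, 0.418 and 0.358 CPM, and Hist1h2ai had 2 to 13 reads per sample.

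Several members share sequence with close copies or with loci that overlap them, so their reads cannot be assigned to 1 gene with certainty. Windows were compared on both strands. Overlapping loci, such as Gm17275 and H3f3aos for H3f3a or Gm20633 and Gm20634 for Hist2h2aa1, therefore add to the shared part. Of all windows of the read length in their transcripts, 100% were shared with another annotated gene for Hist2h2aa1, 87.3% for Hist1h2ai, 60.4% for Hist2h3c2, 54.5% for H3f3a-ps2 and 52.8% for H3f3c. H2afz (24%), Hist1h2bc (21.6%), Hist1h3c (19.6%) and H3f3a (18.5%) shared some. No window was shared for Hist1h4d, Hist2h2be, Hist1h2al and H2afv. Exons of H2afy2 overlap those of Aifm2 on the other strand, and exons of Hist2h2aa1 those of Gm20633, both also among the RNAs analysed. Exons of H1f0, H2afj, H2afx, H2afy, H3f3a, Hist1h2ai and Hist1h2al overlap loci on the other strand that were not among them. Whether counting used strand is not given in the sources used here.

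**Figure D2:**
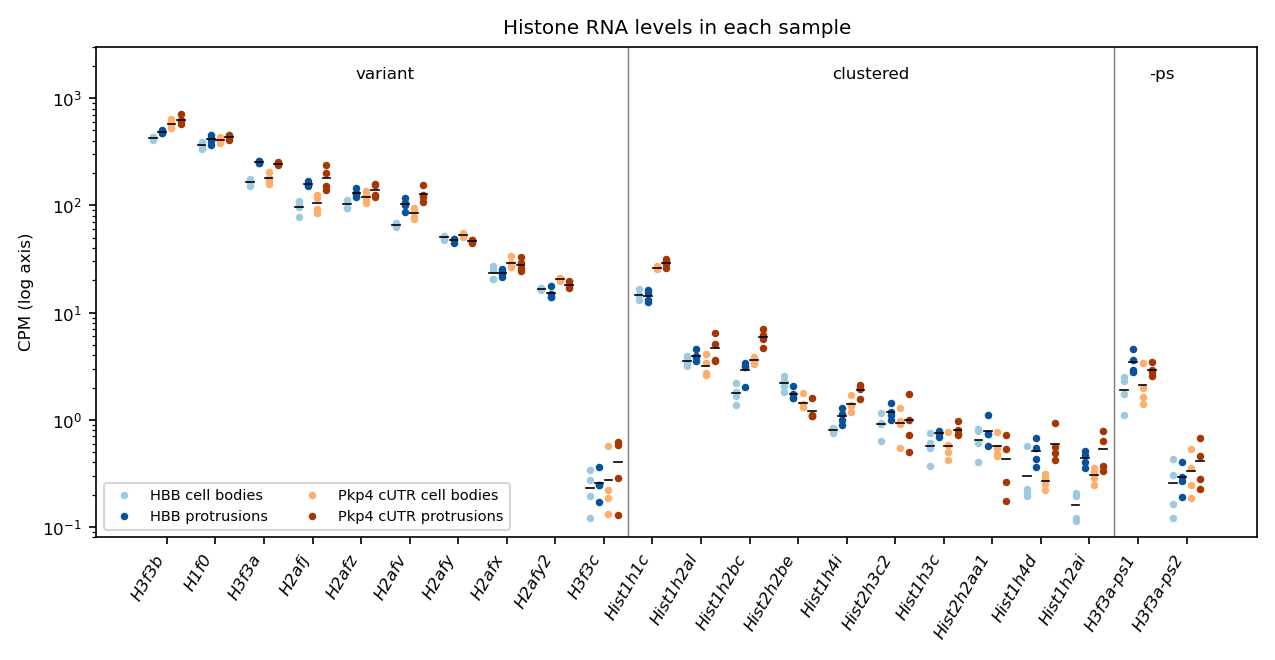
CPM (log axis) of the 22 histone RNAs in each of the 16 samples. Points are samples, horizontal lines are group means (n = 4), and vertical grey lines separate variant genes, clustered genes and loci named as pseudogenes (-ps). The mean of H3f3b over all samples was 527 CPM and that of Hist1h1c 21.0 CPM.

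The comparison of Ps with CB asked which RNAs were enriched in protrusions. In HBB cells, 9 of 22 histone RNAs were higher in Ps and none was lower (adjusted p under 0.05, limma), where 28.3% of all RNAs were higher and 28.9% lower. Of the variants, 5 of 10 were higher, of the clustered genes 3 of 10 (1 of them, Hist1h2ai, kept by the low-value filter through Ps samples alone), and of the pseudogenes H3f3a-ps1. The median log2 fold change was 0.21 for variants and 0.41 for clustered genes, against 0.006 for all RNAs. With RNAs limited to a mean log2 CPM above 0.5, which left 4 clustered and 9 variant genes, the medians in HBB were 0.06 for clustered and 0.19 for variant genes. In Pkp4 cUTR cells, 7 were higher (3 variant, 4 clustered) and H2afy was lower, where 28.2% of all RNAs were higher and 28.5% lower. Hist1h2al, annotated as a processed pseudogene, was among the 4 clustered. There, the medians were 0.18 for variants and 0.47 for clustered genes, against 0.0108 for all RNAs. The 4 clustered genes left by the filter gave, in the unfiltered fit of this line, 0.69 (Hist1h2bc), 0.50 (Hist1h2al), 0.14 (Hist1h1c) and -0.25 (Hist2h2be).

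These directions depend on the scaling of the libraries. With plain library totals in place of the deposited scaling, the median of all RNAs moved to -0.23 in HBB and -0.25 in Pkp4 cUTR, 6 histone RNAs were higher and 4 lower in HBB (15% and 43.5% of all RNAs), and 4 were higher and 4 lower in Pkp4 cUTR (13.9% and 45.5% of all RNAs). H2afj, H2afv and Hist1h2bc were higher in both lines under either scaling, H3f3a, Hist1h2ai and H3f3a-ps1 were so in HBB, and Hist1h4d in Pkp4 cUTR. Hist1h2ai had passed the low-value filter through Ps samples alone, and for Hist1h4d no CB sample of Pkp4 cUTR reached that level. For Hist1h2ai and Hist1h4d, a call under both scalings therefore adds no support for enrichment. Those lower with library totals were H2afy, H2afy2 and Hist2h2be in both lines, Hist1h1c in HBB and H2afx in Pkp4 cUTR. Samples were bulk extracts, in which fewer cells or cell parts and less RNA in each cannot be told apart. Without replicate 4 of both cell bodies, 9 histone RNAs were called in HBB, all higher. In Pkp4 cUTR 11 were called, 10 higher and 1 lower, and 7 of these were called with all samples. Without Ps replicate 3 of Pkp4 cUTR, 5 were called in that line (4 higher, 1 lower). The calls over all RNAs in these reduced fits are not given here, so the counts cannot be set beside a share.

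Under the deposited scaling, H3f3a had the smallest adjusted p of the 22 in both lines. It measured 166.6, 178.1, 150.5 and 172.1 CPM in HBB cell bodies and 250.6, 261.0, 258.4 and 247.7 CPM in HBB protrusions. In Pkp4 cUTR it measured 180.0, 174.3, 159.7 and 204.9 CPM in CB and 241.8, 239.8, 246.5 and 252.2 CPM in Ps. The groups did not overlap in either line. The log2 fold change was 0.61 (SE 0.07, n = 4 against 4, adjusted p = 1.47e-06, limma) in HBB and 0.45 (SE 0.07, adjusted p = 4.31e-05) in Pkp4 cUTR. With library totals H3f3a gave 0.37 in HBB (adjusted p = 0.000733, limma) and 0.19 in Pkp4 cUTR, where it was not called (adjusted p = 0.0545). The sister gene H3f3b measured 408.3 to 431.6 CPM in HBB cell bodies and 474.9 to 501.1 CPM in Ps, a log2 fold change of 0.19 (SE 0.07, adjusted p = 0.0301). With library totals that value was -0.04, still above the shifted median of all RNAs, and the call was lost without CB replicate 1 or 3 or Ps replicate 1 or 2 (adjusted p from 0.0528 to 0.0805). Quantile normalization and the replicate block also removed this H3f3b call. In Pkp4 cUTR, H3f3b measured 529.7 to 635.8 CPM in CB and 572.7 to 711.8 in Ps, and the change of 0.14 was not called (SE 0.07, adjusted p = 0.121).

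Of the H2A variants, H2afj (H2A.J, chr6:136808244-136810074) measured 97.21, 77.40, 103.0 and 110.3 CPM in HBB cell bodies and 159.6, 155.6, 167.6 and 152.2 CPM in Ps. In Pkp4 cUTR it measured 125.5, 91.94, 84.98 and 117.2 CPM in CB and 150.8, 200.1, 235.9 and 137.9 CPM in Ps. All Ps samples were above all CB samples of their line. The log2 fold changes were 0.72 (SE 0.15, adjusted p = 0.00054, limma) and 0.77 (SE 0.15, adjusted p = 0.000311). H2afv, which encodes an H2A.Z protein (chr11:6427229-6444443), measured 63.37 to 68.90 CPM in HBB cell bodies and 86.59 to 116.7 CPM in Ps. Its log2 fold change was 0.62 in HBB (SE 0.11, adjusted p = 8.15e-05) and 0.58 in Pkp4 cUTR (SE 0.11, adjusted p = 0.000179), again without overlap. H2afz, the other H2A.Z gene (chr3:137864487-137866922), was higher by 0.34 in HBB (SE 0.10, adjusted p = 0.00978) and gave 0.22 in Pkp4 cUTR, which was not called (adjusted p = 0.0813). With library totals H2afz gave 0.10 in HBB and was not called (adjusted p = 0.407, limma).

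The macroH2A genes, whose proteins carry a large additional domain, had negative log2 fold changes in both lines, and 1 of these 4 values passed the test. H2afy (macroH2A1, chr13:56073619-56136361) measured 52.33, 54.00, 55.50 and 50.46 CPM in Pkp4 cUTR cell bodies and 46.02, 47.19, 44.83 and 47.59 CPM in Ps. No Ps sample reached the CB range, and H2afy was lower by a log2 fold change of -0.19 (SE 0.06, adjusted p = 0.0089, limma). In HBB its value was -0.09 (adjusted p = 0.204). H2afy2 (macroH2A2, chr10:61738665-61784147) gave -0.15 in HBB and -0.17 in Pkp4 cUTR, and neither was called (adjusted p = 0.113 and 0.0659). H2afx, encoding the H2A.X of the DNA damage response, gave 0.03 and -0.07, and H1f0 gave 0.18 and 0.10, all without a call. H3f3c, with few reads, gave 0.22 and 0.52 with SEs of 0.53 and 0.51.

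Among clustered genes, the H2B gene Hist1h2bc (chr13:23684199-23692908) was higher in Ps of both lines. It measured 1.824, 2.193, 1.380 and 1.650 CPM in HBB cell bodies and 3.368, 3.102, 3.179 and 2.038 CPM in Ps. Only Ps replicate 4 of HBB fell within the CB range. In Pkp4 cUTR it measured 3.351, 3.650, 3.537 and 3.836 CPM in CB and 5.612, 6.129, 7.090 and 4.648 CPM in Ps, with no overlap. The log2 fold changes were 0.73 (SE 0.20, adjusted p = 0.00401, limma) and 0.69 (SE 0.15, adjusted p = 0.000877). By contrast, the H2B gene Hist2h2be (chr3:96221119-96223738) gave -0.33 (adjusted p = 0.0996) and -0.25 (adjusted p = 0.291). The most abundant clustered RNA, Hist1h1c, gave -0.03 (SE 0.10, adjusted p = 0.78) in HBB and 0.14 (SE 0.08, adjusted p = 0.16) in Pkp4 cUTR.

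The histone H4 genes rested on fewer reads. Hist1h4d (chr13:23581598-23582735) measured 0.2099, 0.2245, 0.1929 and 0.5649 CPM in HBB cell bodies and 0.4295, 0.3664, 0.6792 and 0.5516 CPM in Ps, from 6 to 12 reads per sample. CB replicate 4 lay among the Ps values. The log2 fold change was 0.93 (SE 0.36, adjusted p = 0.0323, limma), and the call was lost without CB replicate 1, 2 or 3 or Ps replicate 3 or 4 (adjusted p from 0.0706 to 0.106). It was also lost with library totals, quantile normalization, the fit without weights, the fit to log2(CPM + 1) and the replicate block. In Pkp4 cUTR it measured 0.2234 to 0.3145 CPM in CB and 0.4182 to 0.9335 CPM in Ps, a log2 fold change of 1.10 (SE 0.35, adjusted p = 0.0133), which was lost without Ps replicate 3 (adjusted p = 0.0581). Hist1h4i (chr13:22040636-22041362) gave 0.41 in HBB (adjusted p = 0.0897) and 0.43 in Pkp4 cUTR (SE 0.16, adjusted p = 0.0319), the latter lost without CB replicate 2, 3 or 4 or Ps replicate 2, 3 or 4 (adjusted p from 0.0533 to 0.0975). Library totals, quantile normalization and the replicate block also removed this Hist1h4i call.

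The H2A gene Hist1h2ai (chr13:21716422-21716814) measured 0.2099, 0.1209, 0.1929 and 0.1130 CPM in HBB cell bodies, from 2 to 6 reads, and 0.4747, 0.5129, 0.3532 and 0.4077 CPM in Ps, from 6 to 10 reads. The groups did not overlap, and the log2 fold change was 1.47 (SE 0.36, adjusted p = 0.00183, limma). Hist1h2ai was the 1 member that reached the lowest level kept in the table, 0.5007 CPM, in Ps samples alone (3 of 8 Ps samples and 0 of 8 CB samples), so the filter favoured a higher Ps value and the call gives no support for enrichment. In Pkp4 cUTR its log2 fold change was 0.71 (SE 0.31, adjusted p = 0.0619). Since 87.3% of its windows are shared with other H2A genes, these reads may belong to any of them. Hist1h2al gave 0.16 in HBB (adjusted p = 0.454) and 0.50 in Pkp4 cUTR (SE 0.18, adjusted p = 0.0251), the latter lost without CB replicate 2 or 3 or Ps replicate 2 or 3 (adjusted p from 0.0752 to 0.102). Library totals and quantile normalization also removed this Hist1h2al call. Hist1h3c gave 0.46 and 0.55, Hist2h3c2 0.41 and 0.03, and Hist2h2aa1 0.28 and -0.56, none of them called. H3f3a-ps1 was higher by 0.95 in HBB (adjusted p = 0.00452) and gave 0.58 in Pkp4 cUTR (adjusted p = 0.0731), and H3f3a-ps2 gave 0.37 and 0.29, neither called.

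**Figure D3:**
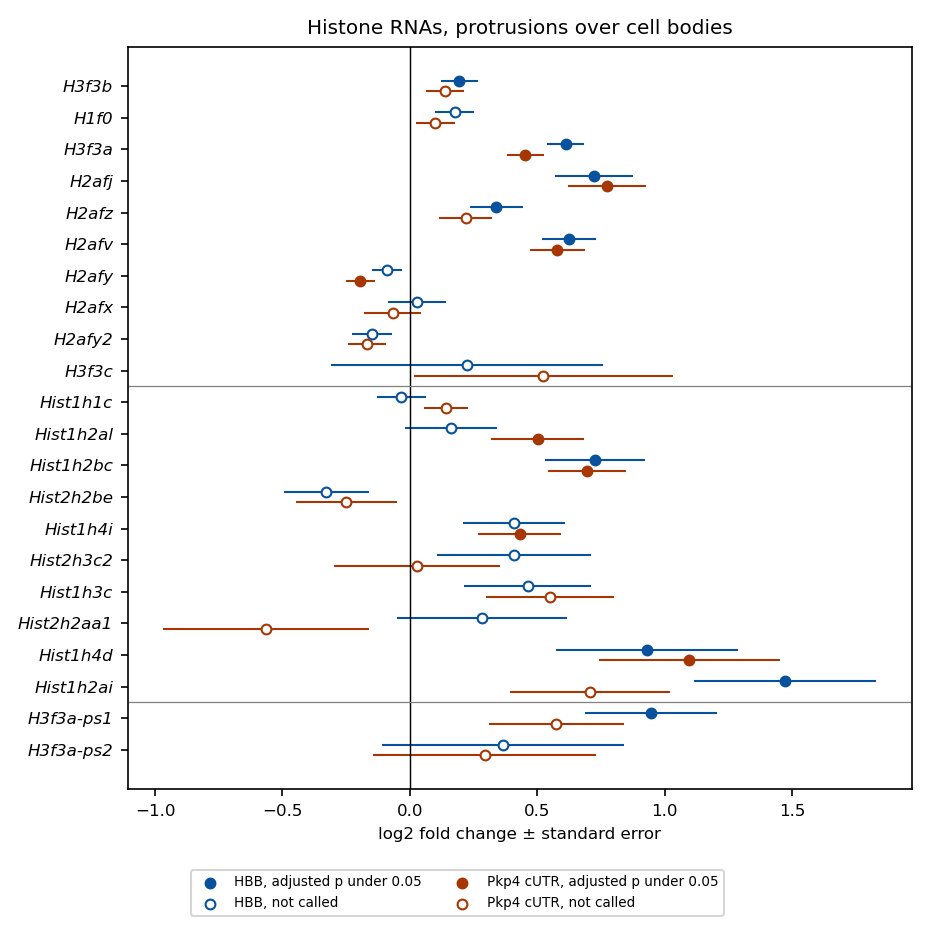
Log2 fold change (Ps over CB) with its standard error for each histone RNA, in HBB (blue) and Pkp4 cUTR (brown) cells, n = 4 against 4. Filled points passed the adjusted p threshold (9 in HBB, all higher, and 8 in Pkp4 cUTR, of which H2afy was lower) under the deposited scaling, and grey lines separate variant genes, clustered genes and pseudogenes. With library totals, 6 were higher and 4 lower in HBB, and 4 and 4 in Pkp4 cUTR.

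At the threshold used in the study (fold above 2 and unadjusted p under 0.05), 1 of 22 histone RNAs was Ps-enriched in each line, where 4.54% of all RNAs in HBB and 5.07% in Pkp4 cUTR were. It was Hist1h4d in Pkp4 cUTR and, in HBB, Hist1h2ai, which had passed the filter on low values through Ps samples alone. Hist1h4d reached the lowest level kept, 0.5007 CPM, in 4 Ps samples and in 1 CB sample, replicate 4 of HBB (0.5649 CPM). No CB sample of Pkp4 cUTR reached it, so the filter may have favoured a higher Ps value there too. The change of enrichment with the Pkp4 cUTR, the log2 fold change in Pkp4 cUTR minus that in HBB, was tested directly. After adjustment it was called for 0 of 12900 RNAs (0%) by limma, while 300 (2.33%) had an unadjusted p under 0.05. None of the 22 histone RNAs was among these. The smallest unadjusted p was 0.123, for Hist2h2aa1. The difference for H3f3a was -0.16 (95% interval -0.37 to 0.06), and that for H2afj was 0.05 (95% interval -0.40 to 0.50).

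The lines were then compared within each fraction. In cell bodies, 5 histone RNAs were higher in Pkp4 cUTR than in HBB (Hist1h1c, Hist1h2bc, Hist1h4i, H3f3b and H2afy2) and 1, Hist2h2be, was lower, where 3.42% of all RNAs were higher and 5.55% lower. In protrusions, the same 5 were higher and none was lower, where 2.89% and 4.26% of all RNAs were. These comparisons and those of Ps with CB share samples. Without replicate 4 of both cell bodies, the same 6 and 5 were called, and the calls over all RNAs in that fit are not given here. With the replicate number as a block, 8 were called in CB, H2afx (0.33, adjusted p = 0.0086, limma) and H2afz (0.20, adjusted p = 0.0463) in addition (4.7% of all RNAs higher, 6.51% lower), and 5 in Ps (4.47% and 5.87%). At a fold above 2 with unadjusted p under 0.05, Hist1h2bc was the 1 called in CB (1.54% of all RNAs), and Hist1h1c, Hist1h2bc and, lower, Hist2h2aa1 were the 3 in Ps (1.53%). Hist2h2aa1 rested on 3 to 16 reads per sample in Pkp4 cUTR protrusions, its groups overlapped, and its adjusted p was 0.139 (limma).

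Hist1h1c had the smallest p of the 22 in both fractions. It measured 14.45, 14.52, 13.10 and 16.47 CPM in HBB cell bodies and 25.80, 26.42, 25.51 and 27.32 CPM in Pkp4 cUTR cell bodies. In Ps it measured 16.16, 12.43, 15.35 and 13.07 CPM in HBB and 28.46, 31.41, 30.00 and 26.32 CPM in Pkp4 cUTR. Every Pkp4 cUTR sample lay above every HBB sample. The fold was 1.81 in CB (log2 0.85, SE 0.09, adjusted p = 3.5e-06, limma) and 2.04 in Ps (log2 1.03, SE 0.09, adjusted p = 1.63e-06). The other linker histone gene, H1f0, gave log2 values of 0.16 (adjusted p = 0.213) and 0.09 (adjusted p = 0.544).

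Hist1h2bc, with the values given above, was 2.07-fold higher in CB (log2 1.05, SE 0.18, adjusted p = 0.00092, limma) and 2.02-fold higher in Ps (log2 1.02, SE 0.17, adjusted p = 0.00106). Hist1h4i measured 0.7588, 0.8460, 0.8457 and 0.7909 CPM in HBB cell bodies and 1.702, 1.192, 1.337 and 1.363 CPM in Pkp4 cUTR cell bodies. It measured 0.9037 to 1.288 CPM in HBB protrusions and 1.563 to 2.094 CPM in Pkp4 cUTR protrusions. Neither fraction overlapped between lines, and the folds were 1.72 (adjusted p = 0.0105) and 1.74 (adjusted p = 0.0122).

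Hist2h2be went in the opposite direction to Hist1h2bc, the other H2B gene. It measured 2.083, 2.538, 2.300 and 1.830 CPM in HBB cell bodies and 1.392, 1.305, 1.777 and 1.321 CPM in Pkp4 cUTR cell bodies, without overlap. The log2 fold change was -0.60 in CB (SE 0.16, adjusted p = 0.0249, limma) and -0.52 in Ps, where it was not called (SE 0.20, adjusted p = 0.129). The call in CB was lost without HBB CB replicate 2 or 3 or Pkp4 cUTR CB replicate 1, 2 or 4 (adjusted p from 0.0689 to 0.0797). It was also lost with quantile normalization and in the fit without weights. The remaining clustered genes were not called in either fraction, and their log2 values ranged from -1.01 (Hist2h2aa1 in Ps) to 0.94 (Hist1h2ai in CB).

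Of the variants, H3f3b measured 427.4, 431.5, 408.3 and 431.6 CPM in HBB cell bodies and 580.6, 529.7, 534.8 and 635.8 CPM in Pkp4 cUTR cell bodies. It was higher in Pkp4 cUTR by 0.42 in CB (SE 0.07, adjusted p = 0.00112, limma) and by 0.37 in Ps (SE 0.07, adjusted p = 0.00461), with no overlap in either fraction. H3f3a, coding for the same protein, gave 0.10 (adjusted p = 0.421) and -0.05 (adjusted p = 0.712). H2afy2 was higher by 0.30 in CB (SE 0.07, adjusted p = 0.0147) and by 0.28 in Ps (SE 0.08, adjusted p = 0.0435). The latter was lost without any 1 of 12 samples, namely HBB CB replicate 1, 2 or 3, HBB Ps replicate 1, 3 or 4, Pkp4 cUTR CB replicate 1 or 2, or any Pkp4 cUTR Ps replicate (adjusted p from 0.0532 to 0.147). H2afv gave 0.35 in CB, just outside the threshold (adjusted p = 0.0502). With library totals, H2afy2 was not called in either fraction (adjusted p = 0.0538 in CB and 0.165 in Ps), and H2afv was called in CB (adjusted p = 0.0371).

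**Figure D4:**
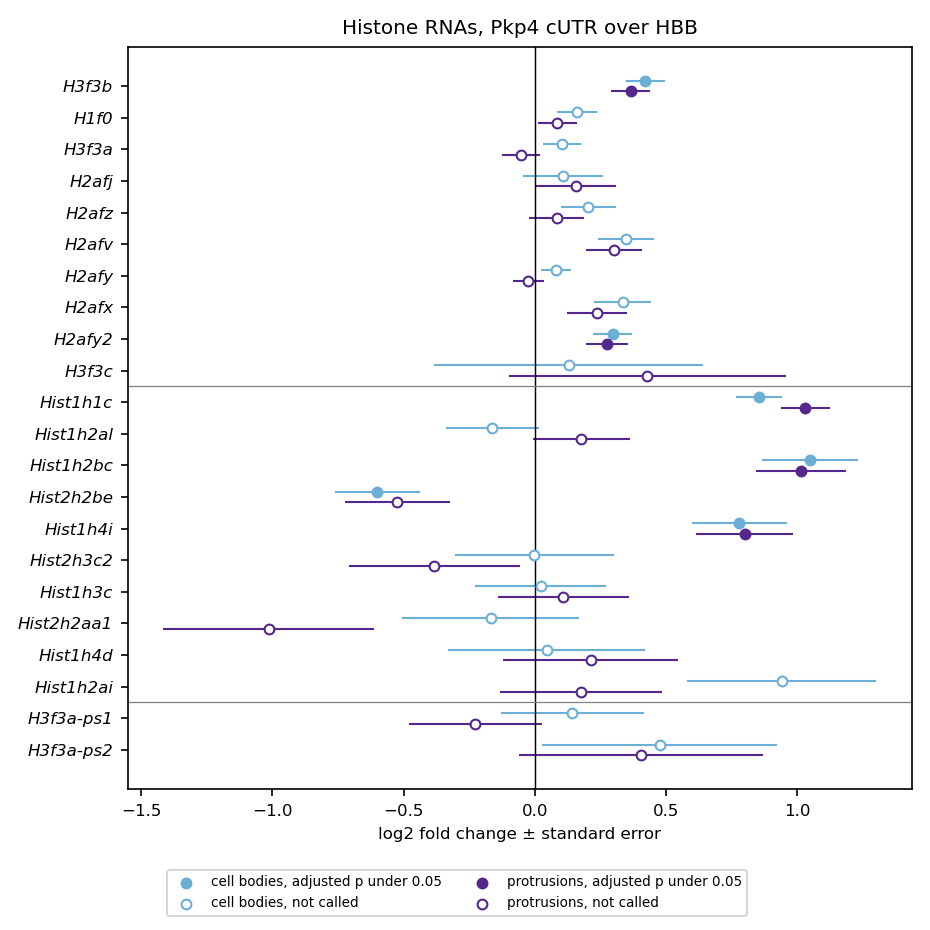
Log2 fold change (Pkp4 cUTR over HBB) with its standard error for each histone RNA, in cell bodies (light blue) and protrusions (purple), n = 4 against 4. Filled points passed the adjusted p threshold, and Hist1h1c, Hist1h2bc, Hist1h4i, H3f3b and H2afy2 were higher in both fractions.

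Ratios within a sample do not depend on library scaling. For 4 pairs of related genes, log2 ratios of CPM were compared between groups by exact 2-sided permutation over samples (70 relabellings, smallest possible p = 0.0286), which gave 16 tests. The pairs were chosen after the values were seen. The H3f3a over H3f3b ratio was -1.35 ± 0.07 in HBB cell bodies and -0.93 ± 0.05 in HBB protrusions (SD, n = 4, exact p = 0.0286, adjusted 0.0654). It was -1.67 ± 0.06 in Pkp4 cUTR cell bodies and -1.35 ± 0.12 in protrusions (exact p = 0.0286, adjusted 0.0654). It was thus higher in Ps than in CB in 4 of 4 samples of each line, and lower in Pkp4 cUTR than in HBB within each fraction, without overlap. The smallest possible p did not pass 0.05 after adjustment over 16 tests.

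The Hist1h1c over H1f0 ratio was -4.64 ± 0.14 in HBB and -3.96 ± 0.10 in Pkp4 cUTR cell bodies (SD, n = 4, exact p = 0.0286, adjusted 0.0654), and -4.86 ± 0.18 and -3.91 ± 0.08 in protrusions (same p). Between Ps and CB of a line this ratio overlapped. The H2afy2 over H2afy ratio was -1.59 ± 0.05 in HBB and -1.37 ± 0.04 in Pkp4 cUTR cell bodies without overlap (exact p = 0.0286, adjusted 0.0654), and its groups overlapped in the other comparisons. The H2afv over H2afz ratio overlapped in all 4 comparisons (exact p from 0.114 to 0.2). Between same-numbered samples of the lines, however, it was higher in Pkp4 cUTR in 4 of 4 pairs in CB (mean difference 0.14, range 0.08 to 0.18) and in 4 of 4 pairs in Ps (mean 0.22, range 0.03 to 0.51), each with the smallest p that 16 sign flips of 4 pairs allow (exact p = 0.125). The H3f3a over H3f3b ratio was lower in Pkp4 cUTR in 4 of 4 pairs of each fraction and the Hist1h1c over H1f0 ratio higher in 4 of 4 (exact p = 0.125), and H2afy2 over H2afy was higher in 4 of 4 pairs in CB and 3 of 4 in Ps.

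**Figure D5:**
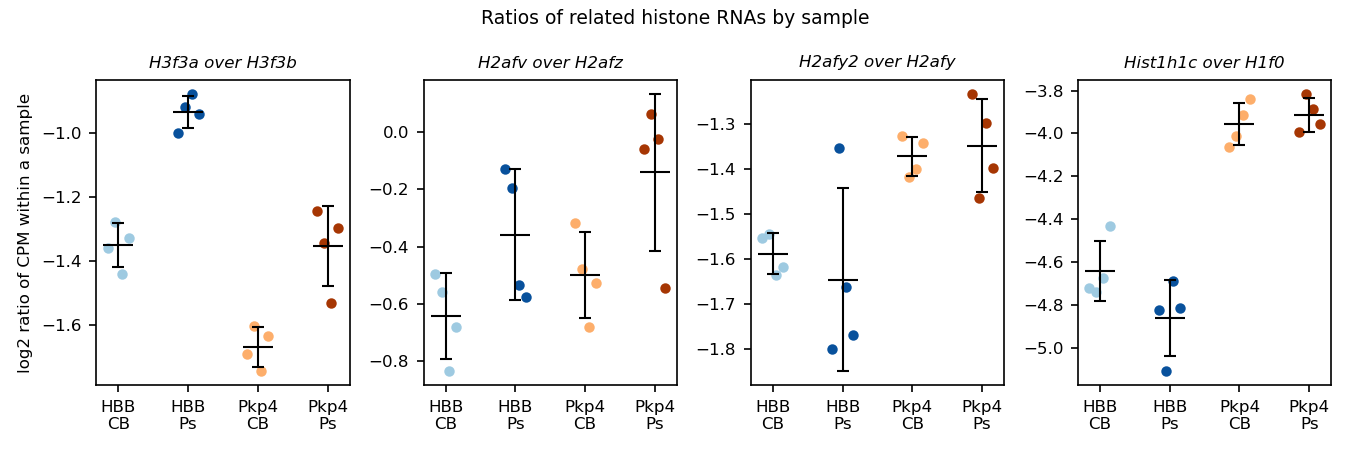
Within-sample log2 ratios of CPM for 4 pairs of related histone genes, by group. Points are samples, black marks are the mean with SD (n = 4). The H3f3a over H3f3b ratio was higher in Ps than in CB of each line (-0.93 against -1.35 in HBB), and the Hist1h1c over H1f0 ratio was higher in Pkp4 cUTR than in HBB.

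Genes that act on histone mRNAs or proteins were followed beside the histones. Of 26 measured genes of histone transcription and mRNA 3′ processing or decay, 4 were higher and 9 lower in Ps of HBB, where 28.3% and 28.9% of all RNAs were, and 6 higher and 9 lower in Pkp4 cUTR, where 28.2% and 28.5% were (1 and 14, and 2 and 13, with library totals). The 3 with the smallest p in HBB were Upf1, a helicase of mRNA decay (log2 -0.86), Srrt, a cap-complex partner (-0.64), and Tut1, a terminal uridylyltransferase (-0.63). Of 34 histone chaperones and their partners, 17 were higher and 4 lower in Ps of HBB (28.3% and 28.9% of all RNAs), and 14 and 4 in Pkp4 cUTR (28.2% and 28.5%). The median log2 fold change was 0.24 and 0.23, but with library totals 7 were higher and 11 lower in HBB (15% and 43.5% of all RNAs), and 8 and 12 in Pkp4 cUTR (13.9% and 45.5%). The 3 with the smallest p in HBB were the nucleosome assembly protein Nap1l1 (1.36) and the nucleophosmin family members Npm1 (1.38) and Npm3 (0.78).

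Between lines, 13 of 43 measured genes of DNA replication and S phase were higher in Pkp4 cUTR cell bodies and 12 in protrusions, where 3.42% and 2.89% of all RNAs were, and none was lower in either. With library totals, 13 were higher in CB and 6 in Ps (310 and 203 of all 12900 RNAs). Their median log2 value was 0.41 in CB and 0.38 in Ps, against 0.003 and 0.0147 for all RNAs. Their summed level was 527.7 to 626.1 CPM in HBB cell bodies and 638.8 to 828.6 CPM in Pkp4 cUTR cell bodies. In Ps it was 493.8 to 585.6 and 576.1 to 752.6 CPM, which overlapped. The part of these genes in the higher levels of Hist1h1c, Hist1h2bc and Hist1h4i was not tested. Of the chaperones, 8 of 34 were higher in Pkp4 cUTR cell bodies (3.42% of all RNAs) and 7 in protrusions (2.89%), with none lower. With library totals, 6 and 4 chaperones were higher (310 and 203 of all RNAs). Of the processing genes, Lsm11, a subunit of the U7 particle that cuts histone pre-mRNA, and Eri1, an exonuclease that trims histone mRNA ends, were higher in both fractions (Lsm11 by 0.57 and 0.57, Eri1 by 0.39 and 0.37), and Zcchc6, a terminal uridylyltransferase (0.53), and Cpsf4, a subunit of the cleavage and polyadenylation complex (0.36), were higher in Ps. With library totals, 1 of the 26 processing genes was higher in Pkp4 cUTR in CB and 2 in Ps (310 and 203 of all RNAs). Between Ps and CB, 8 of 43 S-phase genes were higher and 7 lower in HBB (28.3% and 28.9% of all RNAs), and 7 and 9 were in Pkp4 cUTR (28.2% and 28.5%). With library totals these were 4 and 21 (15% and 43.5% of all RNAs), and 3 and 24 (13.9% and 45.5%).

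Of 6 measured noncoding RNAs on a list drawn up for nuclear RNAs, 2 were lower in Ps of both lines. The list was set by name, and whether each of its RNAs was nuclear in these cells was not measured. Malat1 had log2 fold changes of -1.85 in HBB and -1.27 in Pkp4 cUTR, and Neat1 had -1.48 and -1.21. Gas5 (1.63 in HBB), Pvt1 and Snhg1 were higher in Ps of both lines, and Kcnq1ot1 was not called (-0.55 and -0.25, adjusted p = 0.161 and 0.567, limma). Of the 8 fibroblast markers, 2 were higher and 6 lower in Ps of each line, and of the 6 markers of other cell types, 1 and 3 were in HBB and 1 and 1 in Pkp4 cUTR. Beside these lists, 28.3% of all RNAs were higher and 28.9% lower in HBB, and 28.2% and 28.5% in Pkp4 cUTR. No RNA of these lists was called for a difference of enrichment between the lines.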

How the data were processed

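RNA-seq was done on 4 Ps and 4 CB samples of each line, described in the methods as independent replicates. P-values measure the spread between these samples. Libraries were sequenced as paired-end reads. The authors aligned reads to mm10 with STAR 2.4.2a after bcl2fastq 1.8.4, counted them per gene and deposited log2 CPM values from limma 3.26.1. Whether shared reads were counted is not given in the sources used here. The lowest maximum of any RNA was 0.5007 CPM, so only RNAs above that level in at least 1 sample were tested, and 5 members never reached 1 CPM.

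From the log2 values, whole reads were recovered with an offset of 0.5 reads (100% of values within 0.01 of a whole read). They were fitted with voom weights in limma 3.58.1 (R 4.3.3), with 1 mean per group and the deposited library scaling (0.828 to 1.11 of the totals). P-values were adjusted over 12900 RNAs by Benjamini-Hochberg, and a call means adjusted p under 0.05. The fit was tested on simulated data. Alternatives were library totals, quantile normalization, a fit without weights, a fit to log2(CPM + 1), a filter at 0.5 on the mean log2 value, a replicate block, the fold threshold of 2, and leaving out samples.

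Deviations from the group means correlated between same-numbered samples of HBB and Pkp4 cUTR (r over 10154 RNAs of 0.331 to 0.628 in CB and 0.196 to 0.392 in Ps), so the blocked fit is given beside the comparison of lines. The numbers were taken from the labels, and no source says what they share.

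All variant genes were named, and clustered genes when called in a comparison or among the 3 most abundant of their histone class. Other listed genes were named when a count was 5 or fewer or they were among the 3 with the smallest p in HBB. Members, lists and ratios were chosen with earlier results of these data known. Positions and transcripts were from GENCODE vM21, which matched all 22 symbols; the authors' GENCODE release differed.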

Additional observations from a re-analysis of the deposited data

Results flagged for a closer look

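Among 88 groups of 4 samples, 3 histone values lay far from the other samples of their group (a gap to the nearest, over the range, above Dixon's 95% critical value). Chance gives about 1 such group in 20. Hist2h2be was 0.68 log2 CPM in replicate 1 of the Pkp4 cUTR protrusions (36 reads), against 0.12 to 0.14 in the others. Hist1h4d was -0.82 log2 CPM in replicate 4 of the HBB cell bodies (12 reads), against -2.37 to -2.16. Hist1h2bc was 1.03 log2 CPM in replicate 4 of the HBB protrusions (42 reads), against 1.63 to 1.75.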

How the results depend on the processing

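With library totals, the median log2 fold change of variant genes turned to -0.0285 in HBB and -0.0849 in Pkp4 cUTR, and H3f3b in HBB to -0.0426, and the share of higher RNAs among those called fell from 49.5% to 25.7% in HBB, from 49.7% to 23.4% in Pkp4 cUTR and, between lines in Ps, from 40.4% to 25.6%. With a mean log2 CPM above 0.5, which left 4 clustered genes, their median in HBB was 0.0638. At a fold above 2 with unadjusted p under 0.05, histone calls numbered 1 in HBB, 1 in Pkp4 cUTR, 1 between lines in CB (1.54% of all RNAs) and 3 in Ps (1.53%). Leaving out each sample in turn gave 7 to 9 calls in HBB, 5 to 11 in Pkp4 cUTR (5 without Ps replicate 3), 5 to 8 between lines in CB, 4 to 5 in Ps and 0 for the change of enrichment. The calls over all RNAs in these fits are not given here. Within a line the replicate numbers were not taken to pair Ps with CB, since not every correlation was above 0.1 (0.0455 to 0.389 in HBB, with 3 of 4 above, and -0.362 to 0.00248 in Pkp4 cUTR). That block gave 8 calls in HBB, all higher, where 3582 of 12900 RNAs were higher and 3710 lower. H3f3b (adjusted p = 0.0606, limma) and Hist1h4d (0.0758) were lost there, and H1f0 (0.0446) was gained. In Pkp4 cUTR it gave 8, of which H2afy was lower, where 3571 RNAs were higher and 3641 lower. Hist1h4i was lost (adjusted p = 0.064, limma) and H2afz gained (0.0123) in that line. Between lines the block gave 8 calls in CB (4.7% of all RNAs higher, 6.51% lower) and 5 in Ps (4.47% and 5.87%). Over 28 gene calls and all alternatives, 614 values kept the call, 79 lost it and 1 changed sign. Low reads limit Hist1h2ai, Hist1h4d, H3f3c and H3f3a-ps2, with at most 18 reads in any sample.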
